A study of Mus musculus with 24 samples.

Results

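The 10 immediate early genes Fos, Fosb, Jun, Junb, Egr1, Egr2, Dusp1, Ier2, Ier3 and Atf3 were followed through the differentiation of mouse embryonic stem cells (mESCs) towards the neuromesodermal progenitor state, that of the cells that give rise to spinal cord and trunk mesoderm. They were chosen by name, and each matched 1 of the 35591 genes in the table of counts. RNA of 6 male mESC lines was sequenced, each line derived from a single blastocyst of a cross between a Castaneus mother with wild-type Smchd1 and a C57BL/6 father.

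The 3 lines called wt are labelled Smchd1[fl/+], so they carry a floxed allele next to a wild-type one. The 3 lines called het are labelled Smchd1[del/+], with the deleted allele inherited from the father. The product of Smchd1 acts on chromatin to keep genes silent, and the father carried an MMTV-Cre transgene, in which a mammary tumour virus promoter drives Cre. Whether the lines themselves carry the transgene is not given in the sources used here. Every line was sampled on day 0, day 2, day 2.5 and day 3, which gave 8 groups of 3 libraries. On day 0 the cells were in serum-containing medium with LIF, which keeps mESCs undifferentiated. Before that they had grown in 2i medium with LIF, which also holds CHIR99021, and had been moved off it in steps. They were then moved to N2B27 medium with bFGF, a fibroblast growth factor. At day 2 this medium was changed for one that held CHIR99021, an activator of Wnt signalling, in addition. Fresh medium and CHIR99021 therefore cannot be told apart in a comparison of day 2.5 with day 2. Day 0 cultures were also seeded at a higher density than those of the later days, and medium and density cannot be told apart in a comparison with day 0.

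Immediate early genes are transcribed within minutes of a stimulus from factors that the cell already holds, chiefly serum response factor with its ETS-type partners and CREB, and their transcripts are short-lived. Fos, Fosb, Jun and Junb encode subunits of AP-1, a dimeric transcription factor, and Atf3 encodes a related bZIP protein that is known as a stress-responsive gene. Egr1 and Egr2 encode zinc finger transcription factors downstream of ERK signalling. Dusp1 encodes a phosphatase that switches MAP kinases off and so closes a feedback loop. Ier2 encodes a small nuclear protein, and Ier3 a protein that acts on survival and ERK signalling.

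Dusp1, Ier3 and Atf3 are the members that were called higher at day 2 than at day 0 in both genotypes, and the bases upstream of their start sites are shown here for that reason. The sequences are from RefSeq (GRCm38.p6), on the gene's own strand, cut so that no annotated exon is included, and capitals mark a cAMP response element (CRE), the letters TGACGTCA.
Dusp1, chr17:26508520-26508722, minus strand: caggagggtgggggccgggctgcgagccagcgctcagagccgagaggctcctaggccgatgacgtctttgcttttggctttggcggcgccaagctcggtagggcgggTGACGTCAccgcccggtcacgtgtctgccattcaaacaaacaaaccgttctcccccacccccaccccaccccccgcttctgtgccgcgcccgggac
Ier3, chr17:35821463-35821683, plus strand: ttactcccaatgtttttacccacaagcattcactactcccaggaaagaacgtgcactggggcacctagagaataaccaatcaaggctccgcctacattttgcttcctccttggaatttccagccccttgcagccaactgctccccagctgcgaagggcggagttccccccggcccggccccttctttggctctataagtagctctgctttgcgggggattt
Atf3, chr1:191183341-191183583, minus strand: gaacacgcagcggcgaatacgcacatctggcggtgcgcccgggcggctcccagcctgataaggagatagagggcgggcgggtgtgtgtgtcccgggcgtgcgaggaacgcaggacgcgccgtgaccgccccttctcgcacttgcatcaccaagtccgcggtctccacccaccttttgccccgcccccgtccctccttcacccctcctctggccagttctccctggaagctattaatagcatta
The Dusp1 stretch holds 1 CRE, and the stretches of Ier3 and Atf3 hold none of the motifs searched. Windows of 300 bases around the start site were listed for 8 of the members, 12 windows in all, and windows for Egr1 and Ier2 were not used here. Both strands were searched for the CRE, the CArG box (the core of the serum response element), the AP-1 site TGANTCA, the ETS core CCGGAA and the EGR site GCGGGGGCG. The CRE occurred in 1.79% of all 32851 windows, the CArG box in 1.63%, the AP-1 site in 7.81%, the ETS core in 14.9% and the EGR site in 2.91%. Among the members the CRE was found for Dusp1, the EGR site for Fosb, and the CArG box and the ETS core for Egr2, while the AP-1 site was found in 0 of the 12 windows. A match is a description of letters in this window.

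Library totals ranged from 7.10 to 20.8 M counts, with a median of 17.9 M. As counts per M counts (CPM), a floor of 3 counts comes to 0.422 in the library of lowest depth and 0.144 in that of highest depth, and it covers counting error only. Smchd1, the deleted gene, was lower in each of the 3 het libraries than in each of the 3 wt libraries on every day, at 0.668, 0.601, 0.661 and 0.547 of the wt mean on days 0, 2, 2.5 and 3. By edgeR it was called on day 2 (adjusted p 0.00824) and day 3 (0.0307) but not on day 0 (0.1004) or day 2.5 (0.907). The call was lost without any 1 of the het day 2 libraries (adjusted p 0.0740, 0.0618 and 0.0578 without lines 1, 2 and 3), and on day 3 without wt line 2 (0.191), wt line 3 (0.190), het line 1 (0.133) or het line 3 (0.444). Of the markers, 6 of 6 markers of undifferentiated cells fell from day 0 to day 2 in both genotypes, and 6 of 6 neuromesodermal markers rose and 4 of 4 epiblast markers fell from day 2 to day 2.5 in both. From day 0 to day 2, 2 of 4 epiblast markers rose in wt and 3 of 4 in het, and from day 2.5 to day 3 neuromesodermal markers went both ways, 1 higher and 2 lower of 6 in wt and 1 and 1 in het. The line that stood apart was wt line 1, in which the log2 ratio to the other wt lines had a median over 670 chromosome 8 genes of 0.15, 0.21, 0.26 and 0.22 on the 4 days. The next largest median of a chromosome had a size of 0.148 on day 0 and 0.053 on day 2 (chromosome 18), and of 0.151 on day 2.5 and 0.063 on day 3 (chromosome 13). On day 0 chromosome 8, at 0.151, was thus hardly apart from chromosome 18. Junb and Ier2 lie on chromosome 8.

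The members differed widely in abundance. Levels of different genes are compared only per length, in reads per kilobase of exon per M counts (RPKM), computed here from the counts and given as mean ± SD of 3 lines. At day 0 Ier2 was the most abundant, at 54.4 ± 21.2 RPKM in wt and 38.6 ± 0.356 in het, followed by Dusp1, Ier3 and Junb. In wt the libraries of Dusp1 and Ier3, of Ier3 and Junb, and of Jun and Atf3 overlapped, so these neighbours in the order did not differ beyond their spread. At day 2 Ier3 led, at 76.3 ± 16.5 RPKM in wt and 57.0 ± 11.4 in het, and Ier2 and Dusp1 came next, overlapping each other in wt. At day 2.5 Ier2 led again, at 49.6 ± 16.4 and 38.8 ± 2.80 RPKM, while Ier3 and Atf3 overlapped behind it. At day 3 Ier3 and Ier2 stood first and overlapped in both genotypes. Fos was eighth in all 8 groups, at most 1.30 ± 0.0963 RPKM, and Egr2 and Fosb were the lowest, each with at most 0.263 RPKM on average in a group.

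**Figure D1:**
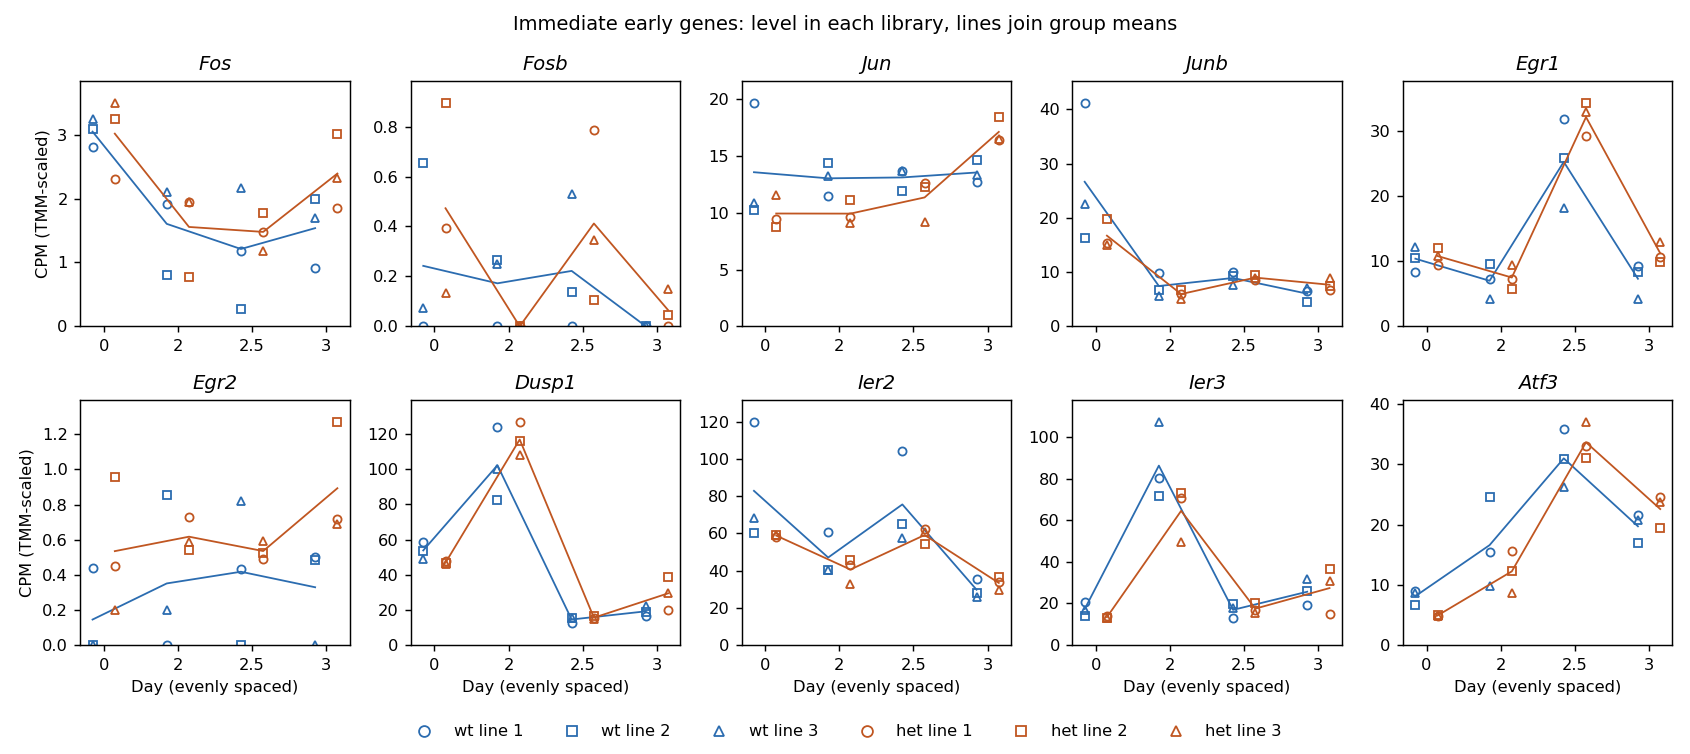
Level of each gene (CPM, scaled with TMM factors) in the 24 libraries by day, with wt lines in blue and het lines in orange, a symbol for each line and a line through the group means. Dusp1 and Ier3 peak at day 2, Egr1 and Atf3 at day 2.5, and Junb is highest at day 0; Fosb and Egr2 reach at most 1.27 CPM.

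Each day was compared with the one before it within a genotype, with the edgeR quasi-likelihood test across all genes and a Benjamini-Hochberg adjusted p under 0.05 as the threshold, and rose and fell are used of genes past this threshold. Fosb passed the filter on low counts in 0 comparisons, and Egr2 in 2 of these 6, both in het and both from day 2 on, so 8 or 9 of the 10 members were tested. From day 0 to day 2, 3 members rose and 2 fell of 8 tested in wt, and the same numbers rose and fell in het. In wt 22.4% of all genes tested rose and 21.9% fell, and in het 28% rose and 28.1% fell. From day 2 to day 2.5, 3 members rose and 2 fell of 8 in wt, against 14.6% and 14.5% of all genes, and 4 rose and 2 fell of 9 in het, against 21.8% and 22.9%. From day 2.5 to day 3, 0 rose and 3 fell of 8 in wt, against 8.99% and 10.1% of all genes, and 2 rose and 3 fell of 9 in het, against 13.8% and 16%. Much of the transcriptome changed at each step, and whether the members changed more often than other genes was not tested. The median log2 fold change of the members tested was -0.31, 0.15 and -0.27 at the 3 steps in wt and -0.25, 0.19 and 0.56 in het, where that of all genes lay between -0.02 and 0.02. In bulk RNA, fewer cells of a type and less RNA per cell cannot be told apart.

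**Figure D2:**
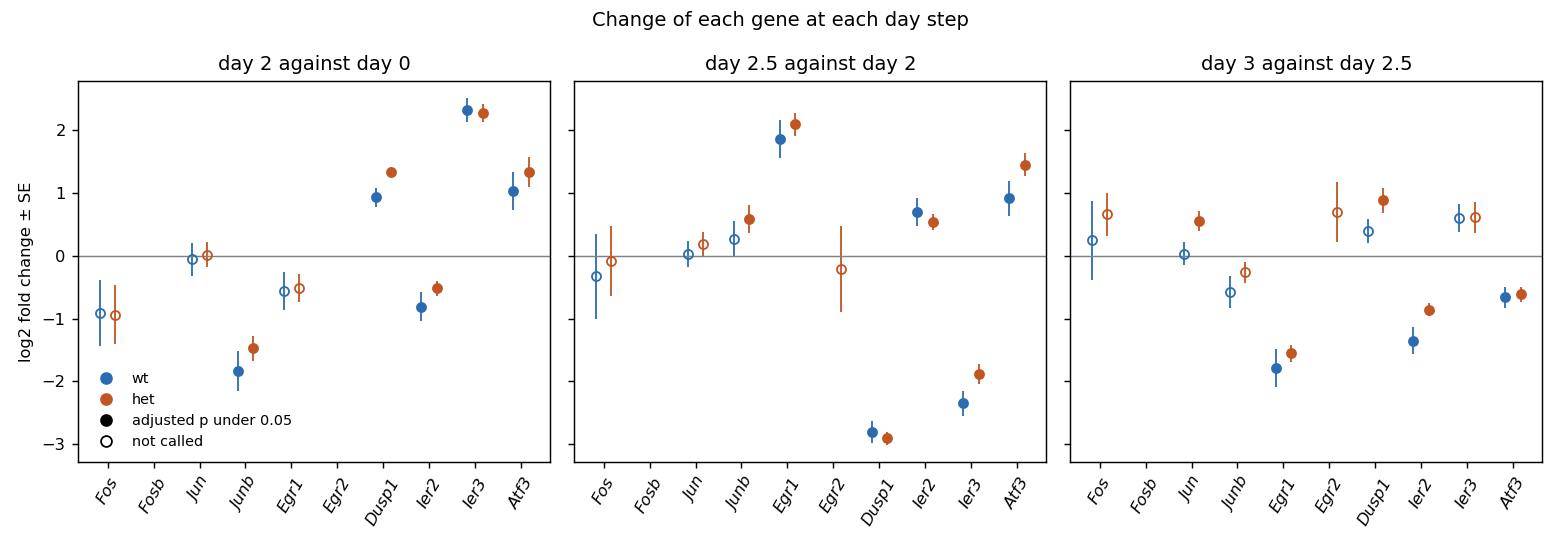
Log2 fold change with its standard error for each gene at the 3 day steps, wt in blue and het in orange, filled where the adjusted p was under 0.05. Dusp1 and Ier3 rise at the first step and fall by more than any other member at the second, Egr1 rises and falls a step later, and the genotypes have the same sign wherever both are filled.

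Dusp1, the MAP kinase phosphatase, was at its highest on day 2 and its lowest on day 2.5 in both genotypes. On day 0 its level was 58.9, 53.5 and 49.1 CPM in wt lines 1, 2 and 3, and 47.8, 46.4 and 46.3 CPM in het lines 1, 2 and 3, the order used throughout. On day 2 it was 124, 82.4 and 100.4 CPM in wt and 127, 116 and 108 CPM in het. All day 2 libraries lay above all day 0 libraries of their genotype, a rise of 1.91-fold in wt (log2 fold change 0.93, SE 0.15, adjusted p 0.000177) and 2.52-fold in het (log2 fold change 1.34, SE 0.08, adjusted p 3.88e-09). At day 2.5 the level was 12.7, 15.7 and 15.3 CPM in wt and 15.7, 16.3 and 14.8 CPM in het. The fall was 7.02-fold in wt (log2 fold change -2.81, SE 0.18, adjusted p 3.24e-07) and 7.53-fold in het (log2 fold change -2.91, SE 0.11, adjusted p 1.96e-10), again with no overlap. At day 3 Dusp1 stood at 16.4, 19.1 and 22.1 CPM in wt and 19.7, 38.8 and 29.8 CPM in het. This rise passed the test in het (log2 fold change 0.88, SE 0.20, adjusted p 0.00692) and missed it in wt (log2 fold change 0.40, SE 0.18, adjusted p 0.155), and the difference between these changes was not called (log2 fold change 0.51, SE 0.29, adjusted p 0.999). Ergic1 overlaps an exon of Dusp1 on the other strand, and the strand setting of the counting was not stated.

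Ier3 followed Dusp1 through the first steps. It was 20.9, 14.2 and 16.8 CPM in wt and 13.9, 13.2 and 13.1 CPM in het on day 0, and 80.1, 71.5 and 107 CPM in wt and 70.8, 73.0 and 49.7 CPM in het on day 2. The groups of the 2 days were far apart, and the rise of 5.01-fold in wt (log2 fold change 2.33, SE 0.19, adjusted p 3.63e-07) and 4.86-fold in het (log2 fold change 2.28, SE 0.15, adjusted p 3.88e-09) was the largest change of any member at this step. By day 2.5 the level was back at 13.1, 19.8 and 17.9 CPM in wt and 16.7, 20.3 and 15.5 CPM in het. The fall was 5.11-fold in wt (log2 fold change -2.35, SE 0.19, adjusted p 3.88e-06) and 3.70-fold in het (log2 fold change -1.89, SE 0.16, adjusted p 5.91e-07). At day 3 it was 19.4, 25.9 and 31.6 CPM in wt and 15.2, 36.4 and 30.6 CPM in het, with het line 1 low and the groups overlapping those of day 2.5. The change missed the threshold in wt (log2 fold change 0.60, SE 0.22, adjusted p 0.0772) and in het (log2 fold change 0.61, SE 0.25, adjusted p 0.0881). It passed with the line as a block in wt (adjusted p 0.00855), without wt day 3 line 1 (0.77, adjusted p 0.0375) and without het day 3 line 1 (0.90, adjusted p 0.00139). It also passed by the DESeq2 Wald test in wt (adjusted p 0.0458) and het (0.0277), with no filter beyond 1 count in wt (0.0327) and het (0.000284), and in wt by limma voom (0.0295) and without wt line 1 (0.0264), so its call depends on the method.

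Markers of endoderm, other cells that such cultures could hold, moved at the same step as the rise of Dusp1 and Ier3. Of 17 endoderm markers tested, 13 rose and 0 fell from day 0 to day 2 in wt, and 14 rose and 0 fell in het. The summed level of the 20 markers went from between 3607 and 5645 CPM to between 10006 and 19999 CPM in wt, and from between 2242 and 3041 CPM to between 6535 and 8748 CPM in het. Afp, a marker of endoderm, was at 0 counts in 5 of the 6 day 2 libraries, and Ttr in 2. From day 2 to day 2.5, where Dusp1 and Ier3 fell, 0 endoderm markers rose and 1 of 17 fell in wt, and 9 rose and 1 fell in het. Within groups, the deviations of log2 CPM from the group mean correlated with those of the summed endoderm level at r = 0.59 for Ier3 and 0.30 for Dusp1 but -0.45 for Atf3, which was called higher at day 2 as well, over 24 libraries that share lines. The other members ranged from -0.66 for Ier2, with Egr1 at -0.41 and Junb at -0.29, through Egr2 (-0.00708) and Jun (0.10) to Fos (0.34) and Fosb (0.39). The part of endoderm cells in these changes was not tested.

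Atf3 rose at both of the first steps. It was 9.04, 6.72 and 8.60 CPM in wt and 4.89, 4.98 and 4.88 CPM in het on day 0, and 15.5, 24.5 and 9.75 CPM in wt and 15.7, 12.3 and 8.70 CPM in het on day 2. The days did not overlap in either genotype, although wt line 2 stood far above wt line 3 on day 2. The rise was called in wt (log2 fold change 1.04, SE 0.30, adjusted p 0.0116) and in het (log2 fold change 1.33, SE 0.24, adjusted p 0.000206), and in wt the call was lost without day 2 line 2 (0.63, adjusted p 0.106). On day 2.5 Atf3 reached 35.8, 30.9 and 26.2 CPM in wt and 33.0, 31.0 and 37.0 CPM in het. This further rise was called in wt (log2 fold change 0.91, SE 0.27, adjusted p 0.0236) and in het (log2 fold change 1.45, SE 0.18, adjusted p 2.46e-05). In wt it was lost without day 2 line 1 (0.86, adjusted p 0.0748), day 2 line 3 (0.63, adjusted p 0.0839), day 2.5 line 1 (0.79, adjusted p 0.0659) or day 2.5 line 2 (0.92, adjusted p 0.0588), and with line 1 left out on both days (0.74, adjusted p 0.0984). By day 3 the level had fallen to 21.5, 16.9 and 20.7 CPM in wt and 24.6, 19.4 and 23.7 CPM in het, with no overlap (log2 fold change -0.66, SE 0.17, adjusted p 0.0214 in wt, and log2 fold change -0.61, SE 0.12, adjusted p 0.00337 in het). In wt this call was lost without day 2.5 line 1 (-0.54, adjusted p 0.0516), day 2.5 line 2 (-0.66, adjusted p 0.0666), day 3 line 2 (-0.57, adjusted p 0.0835) or day 3 line 3 (-0.70, adjusted p 0.0667).

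Egr1, the zinc finger factor downstream of ERK, had a sharp maximum on day 2.5, the first sampling after the day 2 change to fresh medium with CHIR99021. On day 0 it was 8.41, 10.6 and 12.2 CPM in wt and 9.51, 12.1 and 10.9 CPM in het, and on day 2 it was 7.22, 9.65 and 4.15 CPM in wt and 7.28, 5.75 and 9.48 CPM in het. The change between these days was not called in wt (log2 fold change -0.56, SE 0.31, adjusted p 0.161) or in het (log2 fold change -0.51, SE 0.22, adjusted p 0.0641), and in het it was called by limma voom on all 6 libraries (-0.53, adjusted p 0.0434) and without day 2 line 3 (-0.72, adjusted p 0.0115). On day 2.5 Egr1 was 31.9, 25.8 and 18.2 CPM in wt and 29.3, 34.3 and 32.9 CPM in het, above every day 2 library. The rise was 3.64-fold in wt (log2 fold change 1.87, SE 0.30, adjusted p 0.000682) and 4.28-fold in het (log2 fold change 2.10, SE 0.18, adjusted p 8.52e-07). On day 3 the level was 9.35, 8.41 and 4.19 CPM in wt and 10.7, 9.97 and 13 CPM in het, again with no overlap with day 2.5 (log2 fold change -1.79, SE 0.30, adjusted p 0.00378 in wt, and log2 fold change -1.55, SE 0.13, adjusted p 4.68e-05 in het). Egr1 and Dusp1 ran opposite to each other over the libraries, with r = -0.68 for their log2 CPM. Egr2 had 0 to 27 counts in a library, and its level was at most 1.27 CPM, in het line 2 on day 3. Its changes were not called in het (log2 fold change -0.21, SE 0.69, adjusted p 0.834 from day 2 to day 2.5, and log2 fold change 0.70, SE 0.48, adjusted p 0.302 from day 2.5 to day 3), and in wt it was too low to be tested.

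Of the AP-1 subunits, Junb fell most from day 0 to day 2. It was 41.1, 16.2 and 22.6 CPM in wt and 15.4, 19.8 and 15.0 CPM in het on day 0, and 9.92, 6.72 and 5.65 CPM in wt and 6.01, 6.77 and 5.06 CPM in het on day 2. The days did not overlap, and the fall was 3.57-fold in wt (log2 fold change -1.84, SE 0.32, adjusted p 0.000339) and 2.77-fold in het (log2 fold change -1.47, SE 0.20, adjusted p 1.36e-05). The high wt value of day 0 came from line 1, and without that line on both days the fall was still called (-1.63, adjusted p 0.000425). On day 2.5 Junb was 9.97, 9.21 and 7.57 CPM in wt and 8.60, 9.52 and 8.83 CPM in het. The rise was called in het (log2 fold change 0.59, SE 0.22, adjusted p 0.0426) but not in wt (log2 fold change 0.27, SE 0.28, adjusted p 0.510), and in het it was lost with the line as a block (0.60, adjusted p 0.0535). It was also lost without het day 2 line 1 (0.59, adjusted p 0.0745), day 2 line 3 (0.49, adjusted p 0.0967), day 2.5 line 1 (0.63, adjusted p 0.0778), day 2.5 line 2 (0.55, adjusted p 0.126) or day 2.5 line 3 (0.61, adjusted p 0.0871). On day 3 it was 6.46, 4.54 and 7.04 CPM in wt and 6.73, 7.38 and 8.88 CPM in het, and neither change from day 2.5 was called. Prdx2 overlaps an exon of Junb on the other strand.

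Jun, the partner with which Fos forms AP-1, was level over the days in wt and rose at the last step in het. It was 19.6, 10.2 and 10.8 CPM in wt and 9.45, 8.74 and 11.6 CPM in het on day 0, and 11.5, 14.4 and 13.2 CPM in wt and 9.59, 11.1 and 9.09 CPM in het on day 2. These ranges overlapped, and neither change was called (log2 fold change -0.06, SE 0.26, adjusted p 0.887 in wt, and log2 fold change 0.02, SE 0.20, adjusted p 0.950 in het). On day 2.5 Jun was 13.7, 12 and 13.7 CPM in wt and 12.6, 12.2 and 9.17 CPM in het, and on day 3 it was 12.7, 14.6 and 13.3 CPM in wt and 16.4, 18.4 and 16.5 CPM in het. The rise at this last step was called in het (log2 fold change 0.56, SE 0.16, adjusted p 0.02) but not in wt (log2 fold change 0.03, SE 0.18, adjusted p 0.916), and the difference between the 2 changes was not called (log2 fold change 0.55, SE 0.23, adjusted p 0.999). In het the call was lost without day 2.5 line 3 (0.45, adjusted p 0.0514), day 3 line 2 (0.50, adjusted p 0.0578) or day 3 line 3 (0.58, adjusted p 0.0527). Jun shares exonic bases with the antisense gene Junos, which had 2 to 51 counts in a library. Of the 75-base stretches of the longest Jun transcript 94.9% occurred in no other gene's transcripts, and for the other members all did.

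Fos was low throughout. It was 2.80, 3.09 and 3.25 CPM in wt and 2.31, 3.25 and 3.49 CPM in het on day 0, and 1.91, 0.8 and 2.10 CPM in wt and 1.94, 0.779 and 1.95 CPM in het on day 2. The day 2 libraries lay below the day 0 libraries in both genotypes, but the change was not called in wt (log2 fold change -0.91, SE 0.52, adjusted p 0.176) or in het (log2 fold change -0.94, SE 0.47, adjusted p 0.105). On day 2.5 Fos was 1.19, 0.275 and 2.17 CPM in wt and 1.474, 1.78 and 1.18 CPM in het, where wt line 2 had 2 counts, and on day 3 it was 0.916, 2.00 and 1.70 CPM in wt and 1.85, 3.01 and 2.32 CPM in het. Neither later step was called in either genotype. Fosb had 0 to 16 counts in a library, with 0 in all 3 het libraries of day 2 and all 3 wt libraries of day 3, and did not pass the filter on low counts. In 2 alternatives that kept it, no filter beyond 1 count and one fit of all 24 libraries, it was called in het as lower at day 2 than at day 0 (adjusted p 0.0276 and 0.0235) and as higher at day 2.5 than at day 2 (adjusted p 0.0355 and 0.0327). These calls rest on at most 16 counts in a library, set against the 3 libraries at 0.

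Ier2, the most abundant member per length at day 0 and day 2.5, zigzagged over the days. It was 119.7, 60.2 and 68.5 CPM in wt and 58.2, 59.3 and 58.9 CPM in het on day 0, and 60.6, 40.3 and 40.1 CPM in wt and 43.2, 45.8 and 32.7 CPM in het on day 2. The ranges overlapped in wt, where line 1 was high on both days, and not in het. The fall was called in wt (log2 fold change -0.81, SE 0.23, adjusted p 0.0113) and in het (log2 fold change -0.52, SE 0.12, adjusted p 0.00155). In wt it was lost without day 0 line 1 (-0.44, adjusted p 0.0663), day 2 line 2 (-0.73, adjusted p 0.0535) or day 2 line 3 (-0.71, adjusted p 0.0583) and by the DESeq2 Wald test (adjusted p 0.0665), but not with line 1 left out on both days (-0.66, adjusted p 0.00318). On day 2.5 Ier2 was back at 104, 64.9 and 57.7 CPM in wt and 62.2, 54.2 and 60.9 CPM in het. It rose in wt (log2 fold change 0.70, SE 0.22, adjusted p 0.0317) and in het (log2 fold change 0.54, SE 0.13, adjusted p 0.00346), and each of the 6 lines went up. In wt this was lost without day 2 line 2 (0.59, adjusted p 0.116), day 2 line 3 (0.58, adjusted p 0.132) or day 2.5 line 1 (0.39, adjusted p 0.141), and held with line 1 left out on both days (0.62, adjusted p 0.00967). On day 3 it had fallen to 35.6, 28.0 and 25.7 CPM in wt and 33.9, 36.5 and 29.6 CPM in het, below every day 2.5 library. The fall was 2.56-fold in wt (log2 fold change -1.35, SE 0.22, adjusted p 0.00315) and 1.82-fold in het (log2 fold change -0.86, SE 0.11, adjusted p 0.000237).

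For Ier2 and Junb, the members on chromosome 8, wt line 1 was above the mean of the other wt lines on all 4 days, although Junb on day 3 was higher in line 3. Ier2 in that line was 1.86, 1.51, 1.70 and 1.33 times the mean of wt lines 2 and 3 on days 0, 2, 2.5 and 3. Junb was 2.12, 1.60, 1.19 and 1.12 times that mean. Jun, which lies on chromosome 4, was 1.86 times the mean at day 0 and within 0.833 to 1.07 times on the other days. Members of other chromosomes were raised in this line on single days too. Egr1 was 1.45 and 1.484 times the mean on day 2.5 and day 3, Dusp1 1.36 times on day 2 and Ier3 1.35 times on day 0, and each of these lay below the mean on at least 1 other day. The median chromosome 8 gene, at a log2 ratio of 0.15 to 0.26, was raised by less than Ier2 on each day and by less than Junb on day 0 and day 2. Whether the level of chromosome 8 takes part in the values of Ier2 and Junb was not tested.

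**Figure D3:**
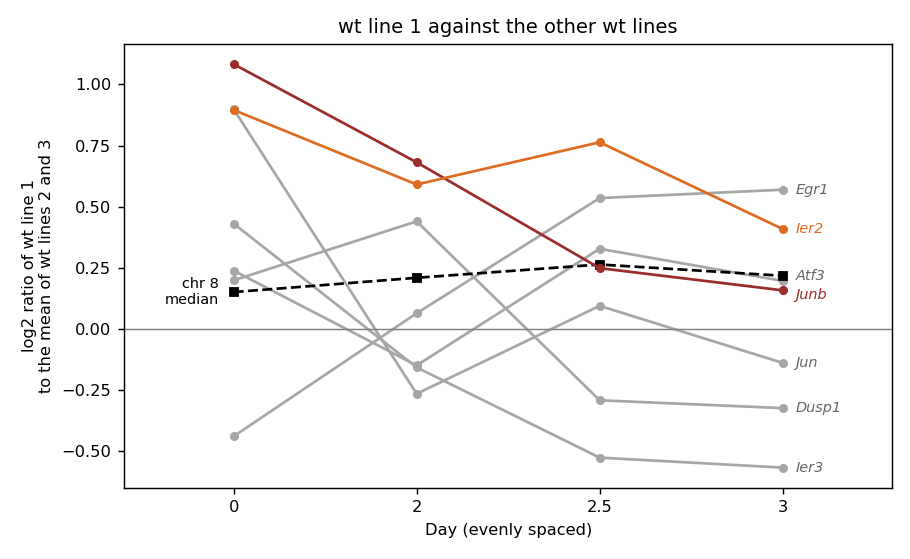
Log2 ratio of wt line 1 to the mean of wt lines 2 and 3 by day for the 7 members with a mean of at least 50 counts, with Junb and Ier2 in colour, the others in grey, and the median of 670 chromosome 8 genes as a dashed black line. Ier2 lies above the dashed line on each day and Junb on day 0 and day 2, while the other members lie on both sides of 0.

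Heat shock genes were listed as signs of handling stress, and their summed level was highest on day 0, like that of Junb. A few abundant genes carry much of this sum. In wt on day 2 the mean was 2889 CPM for Hsp90aa1, 1613 for Hspa8 and 737 for Hspd1, where the sum was 5879 CPM. Whether the sum follows handling was not tested. Of 10 such genes 0 rose and 6 fell from day 0 to day 2 in both genotypes, Hspb1, Hsph1 and Hspa8 among them. Their summed level went from between 9905 and 12393 CPM on day 0 to between 5728 and 6486 CPM on day 2. On day 0 het lay above wt without overlap, at 12194 to 12393 CPM against 9905 to 12119 CPM, and wt line 1 was the lowest. With 0 of the 10 genes called between het and wt on that day, the difference of the sums was not tested. From day 2 to day 2.5, 5 rose and 1 fell in both genotypes, and from day 2.5 to day 3, 0 rose and 1 fell in wt and 2 fell in het. Within groups, the deviations of the summed level correlated with those of the members at between r = -0.67 for Jun and r = 0.50 for Fosb over 24 libraries. Between these lay Ier2 (-0.48), Egr2 (-0.46), Junb (-0.43), Egr1 (-0.31), Ier3 (-0.10), Fos (-0.0887), Atf3 (-0.0740) and Dusp1 (-0.0254), with Fosb and Egr2 at very low counts. Their part in the changes was not tested.

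Het lines were compared with wt lines on each day to ask whether the loss of an allele of Smchd1 alters these genes in the differentiating cells. By edgeR 0 members were called on day 0 (0% of all genes), day 2 (0.551%), day 2.5 (0%) and day 3 (0.00638%), where 8, 9, 8 and 9 members were tested. The deleted gene itself was not called on day 0 or day 2.5, so a count of 0 on those days does not show that het and wt were alike. At an unadjusted p under 0.05 there were 4, 1, 0 and 3 members on the 4 days, and 1649, 1576, 822 and 1432 of all genes. DESeq2 called 0 members too. With no filter beyond 1 count, Ier2 and Junb were called lower in het on day 0, Ier3 lower on day 2 and Dusp1 higher on day 3. Many other genes were called in that setting on day 0 and day 2, as given below. The day 0 log2 fold changes hardly moved, at -0.52 for Ier2 and -0.70 for Junb. Their SEs were smaller, at 0.10 and 0.16 against 0.20 and 0.28. Under the filter used elsewhere, Junb was at -0.22 without wt day 0 line 1 (adjusted p 0.747) and -0.98 without wt day 0 line 2 (0.06395).

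Some members nevertheless had het libraries that lay to one side of all wt libraries. On day 0 this was so for 4 of the 8 tested, Atf3, Ier2, Dusp1 and Ier3, all lower in het, and for 0 higher in het, where 7% of all genes were lower and 9.95% higher in this sense. Atf3 at day 0 was close to constant among the het lines, between 4.88 and 4.98 CPM, against 6.72 to 9.04 CPM in wt (log2 fold change -0.75, SE 0.23, adjusted p 0.343). The median log2 fold change of the 8 members was -0.44, and that of all genes was 0.00. On this day wt line 1 was high for several members, at 2.12 times the mean of the other wt lines for Junb, 1.86 times for Jun and Ier2 and 1.35 times for Ier3. Without that library the log2 fold change was -0.14 for Ier2 (adjusted p 0.709), -0.14 for Dusp1 (0.723), -0.21 for Ier3 (0.739) and -0.65 for Atf3 (0.381). Without wt line 2 instead it was -0.73 for Ier2 (adjusted p 0.0737), -0.25 for Dusp1 (0.2805), -0.53 for Ier3 (0.1325) and -0.88 for Atf3 (0.0888). Ier2 differed by little between het and the lower wt lines, at 59.3 CPM in the highest het line and 60.2 CPM in wt line 2 (log2 fold change -0.53, SE 0.20, adjusted p 0.397). Dusp1 (log2 fold change -0.23, SE 0.11, adjusted p 0.458) and Ier3 (log2 fold change -0.39, SE 0.17, adjusted p 0.444) differed by small amounts as well. The summed level of the heat shock genes lay higher in every het library than in every wt library on day 0, and its part in these values was not tested.

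On day 2 Jun alone lay lower in het, at 9.59, 11.1 and 9.09 CPM against 11.5, 14.4 and 13.2 CPM in wt (log2 fold change -0.40, SE 0.21, adjusted p 0.552), where 7.5% of all genes did so, and 0 members lay higher, against 8.3%. On day 2.5, 0 members were separated in either direction, against 5.26% lower and 6.36% higher. On day 3 the direction was the other way, and the libraries of Jun (log2 fold change 0.33, SE 0.15, adjusted p 0.538) and Egr1 (log2 fold change 0.60, SE 0.27, adjusted p 0.538) lay higher in het, where 8.52% of all genes did, and 0 members lay lower, against 5.44%. Wt line 3 was low for Egr1, at 0.472 times the mean of the other wt lines, and without it the Egr1 difference was 0.32 (adjusted p 0.743). Egr2 lay higher in het too, with 14, 27 and 14 counts against 11, 8 and 0 in wt, but it was tested only because its het libraries passed the filter, so its separation is a description. Markers of the epiblast were also higher in het on day 3, with a median log2 fold change of 0.98 over 4 markers, 0 of them called, and summed levels of 189 to 266 CPM in het and 144 to 188 CPM in wt that did not overlap. Their part in the members' values was not tested. Since the 6 lines recur on each of the 4 days, the days do not stand for separate samples. The mean summed endoderm level was lower in het than in wt on each day, with no overlap of libraries on day 0 and day 2 and with overlap on day 2.5 (8601 against 11580 CPM) and day 3 (7367 against 10747 CPM), and 13 of 17 endoderm markers were called lower in het on day 2, where the Ier3 mean of het was 0.748 of that of wt with overlapping libraries. The part of endoderm cells in these values was not tested.

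**Figure D4:**
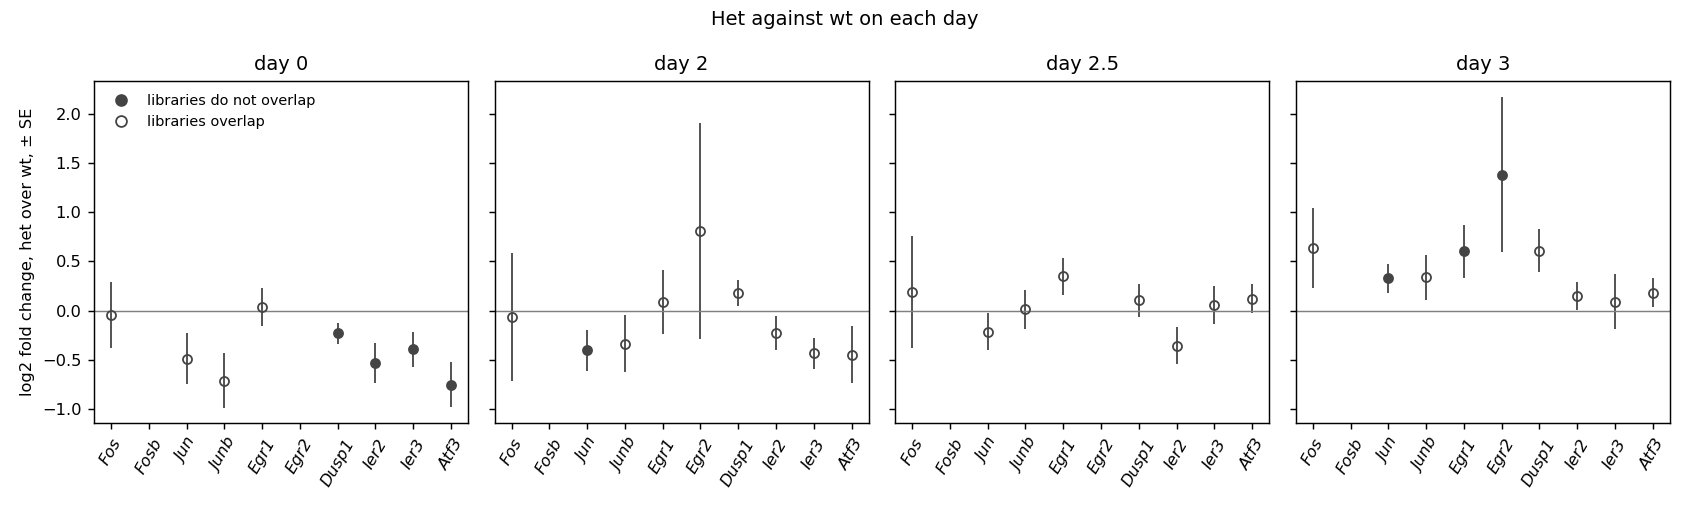
Log2 fold change of het over wt with its standard error for the members tested on each day, filled where the 3 het libraries and the 3 wt libraries do not overlap. Filled points lie below 0 on day 0 and day 2 and above 0 on day 3, where Egr2 passed the filter through its het libraries, and 0 of the points passed an adjusted p of 0.05.

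Whether a day step itself differed between the genotypes was tested as an interaction, in which 0 members and 0% of all genes were called at each of the 3 steps: 0% from day 0 to day 2, 0% from day 2 to day 2.5 and 0% from day 2.5 to day 3. At an unadjusted p under 0.05 there were 1, 0 and 1 members of 9 tested, and 1034, 850 and 635 of all genes. The member at the first step was Dusp1, which rose by a log2 value of 0.41 more in het than in wt (SE 0.18, adjusted p 0.778), and that at the last step was Jun. The median log2 difference of the members was 0.08, 0.24 and 0.46 at the 3 steps, where that of all genes was 0.00.

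Further primary response genes were examined to place the members. Of 43 listed 41 were in the table, and from day 0 to day 2, 8 rose and 11 fell of 35 tested in wt, and 13 rose and 12 fell in het, where the shares of all genes were 22.4% and 21.9% in wt and 28% and 28.1% in het. Whether the list changed more often than all genes was not tested. Genes that rose in both included Bhlhe40 (log2 fold change 1.71 in wt and 1.84 in het), a clock-linked repressor, Btg1 (1.49 and 1.03), an antiproliferative factor, and the zinc finger factor Klf6 (0.94 and 0.70). Genes that fell in both included Socs3 (-2.89 and -2.53), a target of LIF signalling, the kinase gene Sgk1 (-2.36 and -3.00) and Myc (-2.19 and -1.75). From day 2 to day 2.5 most calls were falls, 14 against 3 rises of 37 in wt and 18 against 7 of 36 in het, and the list had median log2 fold changes of -0.38 in wt and -0.45 in het. Of all genes 14.5% fell and 14.6% rose at this step in wt, and 22.9% fell and 21.8% rose in het. Mcl1, Klf6 and Pim1 fell like Dusp1 and Ier3, while Phlda1 (1.08 and 1.69) and Plk2 rose like Egr1. From day 2.5 to day 3 most calls were rises, 7 against 1 of 37 in wt and 12 against 2 in het, where 8.99% of all genes rose and 10.1% fell in wt and 13.8% and 16% in het, with Gadd45b (1.74 and 2.38), Amotl2 and Zfp36l1 higher and Myc lower in both.

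**Figure D5:**
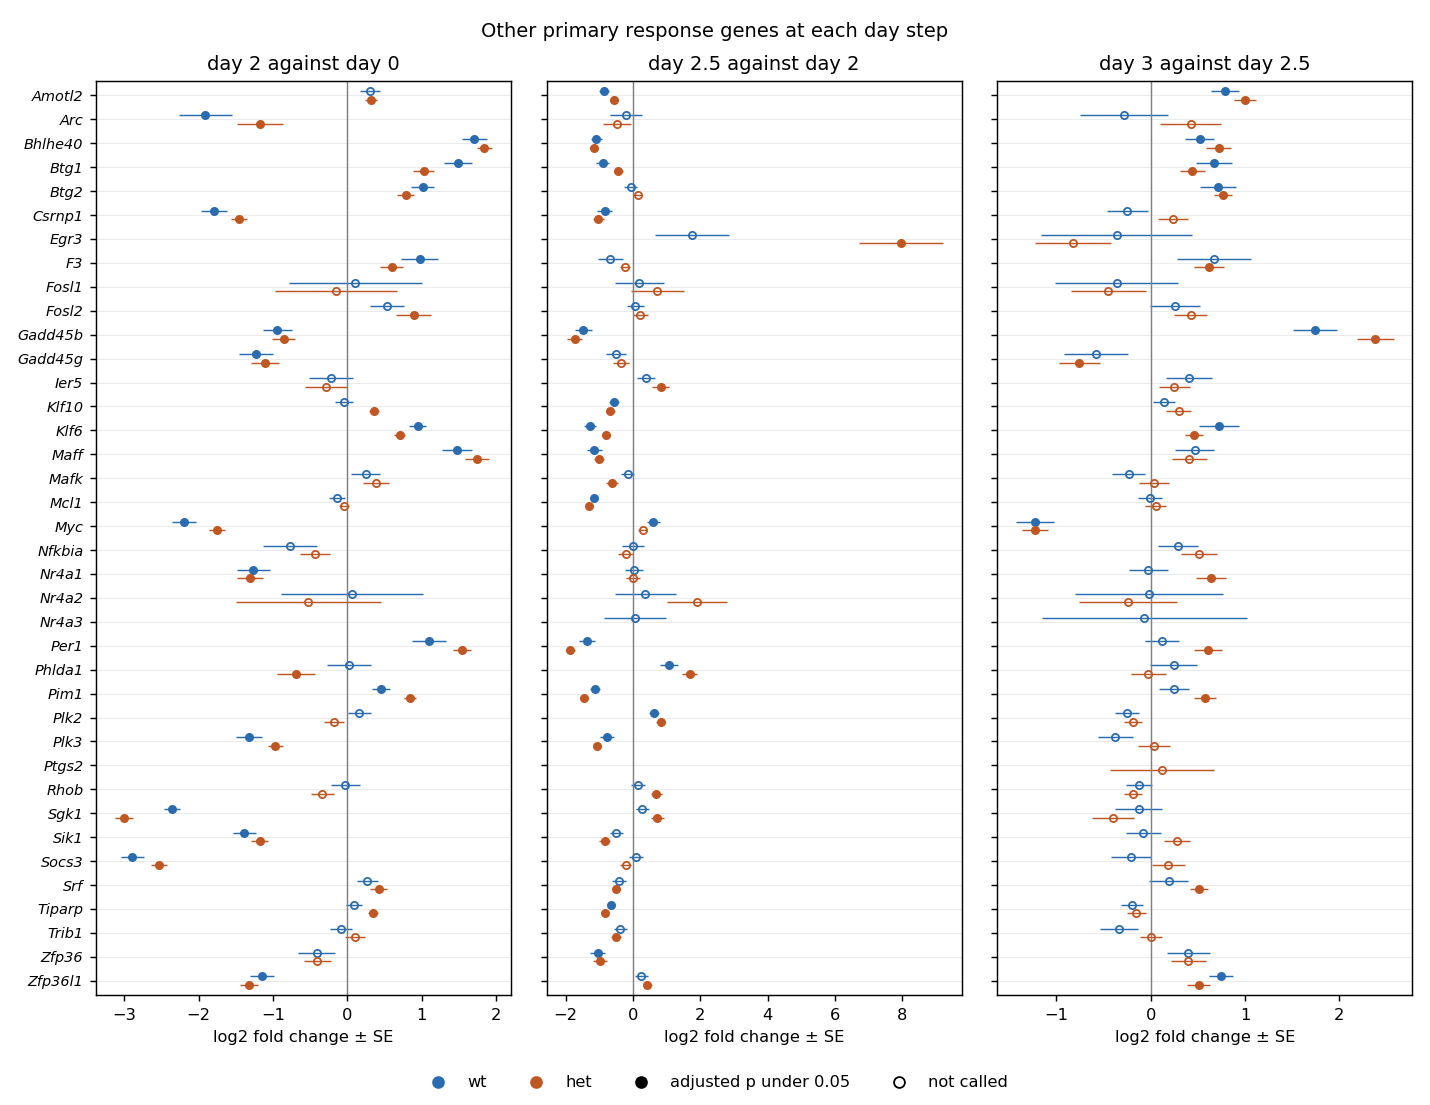
Log2 fold change with its standard error of 38 further primary response genes at the 3 day steps, wt in blue and het in orange, filled where the adjusted p was under 0.05. Calls lie on both sides of 0 at the first step, mostly below it at the second and mostly above it at the third; the far point of Egr3 in het is set against day 2 libraries that held 0 counts and so is no measure of size.

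Genes that act next to the members had calls in both directions. Of 9 other dual-specificity MAP kinase phosphatases, 4 rose and 1 fell in wt and 4 rose and 2 fell in het from day 0 to day 2, where 22.4% and 21.9% of all genes did in wt and 28% and 28.1% in het. These shares, and those given for the later steps, are the background for each list that follows, and no list was tested against them. Dusp6 (0.97 in wt and 1.11 in het), Dusp4 and Dusp5 rose with Dusp1, and Dusp9 fell (-0.92 and -0.94). From day 2 to day 2.5, 1 rose and 3 fell in wt and 2 rose and 4 fell in het, with Dusp6 and Dusp5 falling and Dusp9 rising in both. From day 2.5 to day 3, 1 rose in wt and 3 in het and 0 fell, with Dusp4 higher in both. Nab2, a corepressor of EGR factors, fell from day 0 to day 2 (-1.12 and -1.47) and rose from day 2 to day 2.5 (1.06 and 1.70) with Egr1, while the other corepressor gene, Nab1, was called at 0 steps.

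Of 9 FGF/ERK feedback genes, which count Dusp4 and Dusp6 again, 3 rose and 3 fell in wt and 4 rose and 3 fell in het from day 0 to day 2, with Etv5 (-1.21 and -0.96) and Spry4 lower in both. From day 2 to day 2.5, 3 rose and 2 fell in wt and 3 rose and 4 fell in het, and Etv4 (1.61 and 1.26), Spry2 and Spry4 rose in both with Egr1. From day 2.5 to day 3, 1 rose and 5 fell in wt and 3 rose and 5 fell in het, and Spry4, Spry2 and Etv5 fell in both with Egr1. Of the 4 genes tested from the list of serum response factor and its partners, 1 rose and 0 fell in wt and 2 rose and 1 fell in het at the first step, 0 rose and 1 fell in wt and 2 rose and 2 fell in het at the second, and 0 changed in wt and 2 rose in het at the third. Elk1 rose from day 0 to day 2 (0.58 and 0.69) and fell from day 2 to day 2.5 (-0.70 and -1.02) in both genotypes. Of 8 further AP-1 type partners tested, 1 rose and 1 fell at the first step in wt and 2 rose and 2 fell in het, 0 and 1 then rose and 1 and 0 fell at the second, and 1 and 0 rose and 1 and 1 fell at the third. Atf7 rose from day 0 to day 2 (0.91 and 0.79) and Atf4 fell from day 2.5 to day 3 (-0.76 and -0.70) in both. Between het and wt 0 genes of these lists were called on any day by edgeR. Their summed levels were nevertheless separated on some days. On day 3 het was higher for the FGF/ERK feedback genes (777 to 849 CPM against 651 to 741 CPM in wt), for serum response factor and its partners (92.1 to 97.4 against 71.9 to 84.1 CPM) and for the EGR corepressors (27.1 to 33.9 against 22.6 to 23.0 CPM). On day 2 het was higher for the FGF/ERK feedback genes (936 to 984 against 755 to 893 CPM) and the other phosphatases (536 to 567 against 511 to 528 CPM), and on day 0 lower for the AP-1 type partners (558 to 567 against 574 to 590 CPM). These sums were not tested.

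Among the members, the closest pair in level over the 24 libraries was Junb and Ier2, with Pearson's r = 0.74 for log2 CPM, followed by Dusp1 and Ier3, with r = 0.70. The same pairs stood out in the deviations of libraries from their group mean, at r = 0.71 for Junb and Ier2 and r = 0.82 for Dusp1 and Ier3. The het lines differed most in Dusp1 and Ier3 on day 3. Line 1 then had 0.574 times the mean of the other het lines for Dusp1 and 0.452 times for Ier3, and line 2 had 1.57 and 1.59 times. On that day the summed neuromesodermal markers were at 895, 451 and 596 CPM in het lines 1, 2 and 3, and those of undifferentiated cells at 372, 522 and 387 CPM. The part of these cell states in the spread was not tested. Among genes that averaged 50 counts or more, those most like the mean of the members in log2 CPM were Ece2 (r = 0.67), Amhr2 (0.66), Arhgap45 (0.61), Trib3 (0.59) and Alkbh2 (0.58). Those most like it in deviation from the group mean were Trim41 (r = 0.79), Gm49361 (0.75), Adap1 (0.74), Mmp15 (0.73) and Tpst2 (0.72). The mean of the members weighs each alike, Fosb and Egr2 with their very low counts included. Pairs of members also did not deviate together in general, with r from -0.62 for Fosb and Ier2 to 0.82, so this mean is a poor summary of them. Taken one by one, a choice made after the values were seen, the members had closer matches: Zic5 and Zic2 for Dusp1 (both r = 0.98), Slc1a4 for Atf3 (0.95), Lmnb2 for Junb (0.94), Adgra2 for Ier3 (0.93) and Epha2 for Egr1 (0.89). The libraries share lines and depth, and these values are a description. The biological coefficient of variation within groups was 0.142 for Dusp1, between 0.165 and 0.221 for Jun, Ier2, Atf3, Ier3, Junb and Egr1, 0.351 for Fos, 0.813 for Egr2 and 0.983 for Fosb, where the median of all genes was 0.174. Ier2 and Ier3 varied 1.57 and 1.49 times as much as genes of like abundance.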

How the data were processed

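RNA was sequenced in 24 libraries of 6 mESC lines as 75 base single-end reads, from kits described as stranded or non-stranded. The authors trimmed the reads (Trim Galore 0.4.4, per the submitters' processing notes), aligned them to GRCm38 with HISAT2 2.0.5 and deposited raw counts per gene, made in SeqMonk. The strand setting and the treatment of overlapping genes are not given in the sources used here. The deposited counts were used as they stand, and 8 columns of group means were not used. Of the 35591 gene IDs 35545 matched GENCODE, whose exons gave the lengths for RPKM.

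From the counts, TMM-scaled CPM were computed. Each comparison of 2 groups was fitted on its 6 libraries, and each interaction on 12, with filterByExpr and the edgeR 4.0.16 quasi-likelihood test (R 4.3.3), and p-values were adjusted over all genes tested with the Benjamini-Hochberg method at 0.05. The test was checked on simulated counts: of 200 genes changed 4-fold, 200 were called among 15540 genes for wt day 2.5 against day 2 (5 others called) and 200 among 15504 for het against wt at day 2.5 (15 others). The genes changed had a mean of at least 50 counts, and the dispersion was 0.03 for every gene, with no differences between lines. The check therefore does not show whether smaller changes would be called. Replicates were separate lines. The same line was sampled on each day, which pairs the day steps, although deviations of a line on consecutive days correlated weakly, with a median r of 0.08 (-0.10 to 0.48, 18 pairs). Wt and het lines of the same number are different lines.

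The members and lists were chosen with earlier results of these data known. Named were all members and Smchd1, up to 3 genes of each list per step and direction with the smallest adjusted p in both genotypes, and the 5 genes most like the members' mean in log2 CPM and in deviations. Alternatives were DESeq2 1.42.0 size factors and Wald test, library totals, no filter beyond 1 count, a stricter filter (mean of 50 counts or more), one fit of all libraries, the line as a block, limma 3.58.1 voom, and leaving out each library (96 fits). Leaving out wt line 1 altogether was added after seeing the data. Figures were drawn with matplotlib 3.10.9.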

Additional observations from a re-analysis of the deposited data

Results flagged for a closer look

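Jun, the AP-1 subunit, stood on opposite sides of wt in the het lines on different days. The mean of het minus the mean of wt was -3.107 CPM on day 2, where all 3 het libraries lay below all 3 wt libraries, and 3.574 CPM on day 3, where all 3 lay above. It was flagged because every library moved one way on one day and the opposite way on the other. Neither difference passed an adjusted p of 0.05, and the difference between day 2 and day 3 was not tested.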

How the results depend on the processing

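For the 29 member calls and the 4 comparisons of Smchd1, 475 values were recomputed: 430 kept direction and side of the threshold, 36 lost the call (7 of them Smchd1 on day 2 or day 3), 9 gained one (all Smchd1, on day 0 or day 2.5) and 0 turned direction. Member results that had not been called are outside this tally, and they gained calls as follows: Ier3 from day 2.5 to day 3 in 9 cases, Egr1 in het from day 0 to day 2 in 2, Fosb in het in 2 at each of the first 2 steps, and het against wt in 4. Leaving out single libraries moved the number of members called from 5 to between 3 and 5 for wt day 2 against day 0 (3 without wt day 2 line 2), and to between 3 and 5 for wt day 2.5 against day 2 (3 without wt day 2 line 3 or day 2.5 line 1). With no filter beyond 1 count, the number called between het and wt went from 0 to 2 on day 0 (Ier2, adjusted p 0.000176, and Junb, 0.00222), to 1 on day 2 (Ier3, 0.0248) and to 1 on day 3 (Dusp1, 0.0467), and the number of all genes called on day 0 from 0 to 369 and on day 2 from 85 to 384; the cause was not tested. With the line as a replicate block, Junb in het from day 2 to day 2.5 was lost (log2 fold change 0.60, adjusted p 0.0535) and Ier3 in wt from day 2.5 to day 3 was called (0.59, adjusted p 0.00855), and the block changed no other member's call. The Junb call was also lost with no filter (adjusted p 0.0670) and with all 24 libraries in one fit (0.0758), as was Atf3 in het from day 2.5 to day 3 in that fit (0.0639). Genes below about 50 counts, Fos, Fosb and Egr2, had too few counts for small changes to be measured.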

Other observations

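Jund, another AP-1 subunit, had 0 to 5 counts in a library and 0 in 16 of the 24, and 15 in all. The antisense gene Gm11175, which overlaps it, was listed at 0 in all 24 libraries. How reads in overlapping genes were counted is not given in the sources used here, and these counts cannot be read as the expression of Jund.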
